A study of Mus musculus with 16 samples.

Results

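The genotype by AngII interaction asks, gene by gene, whether the aorta of mice without Vamp8 responded to angiotensin II (AngII) as the wild-type aorta did. It is the AngII minus saline log2 difference in knockout (KO) mice minus the same difference in wild-type (WT) mice. By the design, all 16 of the 16 samples enter it. Of the 29695 genes in the table, 15984 passed the filter on low counts and were tested. A negative interaction means that the AngII minus saline difference was lower in KO than in WT. It equally means that the KO minus WT difference was lower under AngII than under saline. Adjusted p-values are from edgeR's quasi-likelihood test with Benjamini-Hochberg adjustment over all genes tested unless another tool is named, and levels are CPM, the reads of a gene relative to its library's total after TMM scaling.

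RNA came from the suprarenal aorta of male mice, which is the stretch of abdominal aorta above the kidneys, as poly-A enriched libraries. The 4 groups were C57BL/6 wild type with saline, C57BL/6 wild type with AngII, Vamp8-/- with saline and Vamp8-/- with AngII, with 4 libraries each that the labels call biological replicates. AngII was given at 1000 ng/kg/min from an osmotic minipump for 5 days, and saline for the same time. The ages of the mice and the construct of the Vamp8 allele stand in none of the sources used here. Per the labels, aortae that bled into the wall or showed visible disease were excluded, so the most affected vessels are not represented.

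AngII is a vasoconstrictor peptide that acts on smooth muscle, endothelium and adventitia, and in mice a sustained infusion raises blood pressure and provokes matrix deposition, leukocyte entry and cell division in the aortic wall. VAMP8 is a SNARE protein of late endosomes, lysosomes and secretory granules that takes part in membrane fusion, including that of autophagosomes with lysosomes and regulated secretion. The interaction is the statistic by which such a design can show that loss of the gene alters the response, and it has a larger error than either response, since it adds the errors of 4 group means.

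The libraries held markers of aortic tissue and of fat. The 19 measured genes of the smooth muscle contractile list summed to 12420 to 42190 CPM across the libraries. The 18 endothelial markers summed to 1271 to 3467 CPM. Adipocyte markers (13 genes) summed to 3656 to 21590 CPM, with 9615 to 21590 CPM in KO saline. The 12 brown adipocyte markers summed to 653.6 to 9468 CPM. Total counts ran from 13284804 to 21643548. Mitochondrially encoded genes took 27.0% to 32.8% of counts in KO saline and 8.33% to 24.3% in the other groups. Markers of nerve and chromaffin tissue (15 genes) summed to 45.5 to 6937 CPM in KO AngII, with the highest score in replicate 4, and to 30.9 to 309.8 CPM elsewhere. The table held 2725 genes with no reads in any WT library, the same genes that lacked a symbol, and no source used here says whether WT and KO reads were counted in the same way. A difference in counting between the genotypes cannot be told apart from genotype, while a factor common to both KO groups would drop out of the interaction. A counting or preparation difference particular to a single group, such as KO saline, would enter the interaction and cannot be told apart from it.

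Vamp8 (ENSMUSG00000050732), the deleted gene, was at 45.9, 51.9, 57.2 and 52.5 CPM in WT saline and at 55.8, 52.3, 60.9 and 54.2 CPM in WT AngII (replicates 1 to 4). It was at 53.3, 31.4, 26.3 and 24.9 CPM in KO saline, while the KO AngII libraries held 26.7, 24.6, 26.0 and 14.1 CPM. The library labelled KO saline replicate 1 lay within the WT range. It is used below as labelled, and results are given without it where they move. The interaction of Vamp8 did not pass (log2 -0.68, SE 0.32, adjusted p = 0.444). It was -0.36 without that library (adjusted p = 0.692) and -0.20 when KO AngII replicate 4 was left out as well (0.673). Whether the remaining reads lie outside the deleted part was not tested.

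The 3 genes called in the interaction were copies of 2 highly expressed genes, and all 3 had high counts in KO saline and low counts in the other 3 groups. Rps3a2 and Rps3a3 are processed pseudogenes of Rps3a1, which encodes a protein of the small ribosomal subunit, and Tpm3-rs7 is a copy of Tpm3, a tropomyosin gene. In GENCODE M21 (GRCm38), Rps3a2 matched the Rps3a1 coding sequence at 788 of 792 bases (99.49%), with a longest identical run of 317 bases. Rps3a3 matched it at 786 of 795 bases (98.87%, longest run 215), and Tpm3-rs7 matched the Tpm3 coding sequence at 744 of 747 bases (99.6%, longest run 620). The parents lie on chromosome 3 and the copies on chromosomes 14 (Rps3a2, Tpm3-rs7) and 13 (Rps3a3). The deposited counts use GRCm39, so no coordinates are given. To show how few bases tell a copy from its parent, a stretch of 90 bases of each pair follows, from GENCODE M21 transcripts, 5′ to 3′, with the bases that differ in capitals. Positions count from the first base of the parent's coding sequence: 579 to 668 for Rps3a2, 171 to 260 for Rps3a3 and 38 to 127 for Tpm3-rs7, with 2, 2 and 3 differences.
Rps3a1: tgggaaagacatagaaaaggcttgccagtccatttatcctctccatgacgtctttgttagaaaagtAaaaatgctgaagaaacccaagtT
Rps3a2: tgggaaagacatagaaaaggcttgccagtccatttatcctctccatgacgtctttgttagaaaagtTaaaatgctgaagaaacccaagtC
Rps3a1: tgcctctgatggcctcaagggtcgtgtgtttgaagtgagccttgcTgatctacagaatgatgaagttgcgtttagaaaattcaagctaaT
Rps3a3: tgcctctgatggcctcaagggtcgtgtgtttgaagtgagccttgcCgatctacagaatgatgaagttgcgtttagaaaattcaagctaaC
Tpm3: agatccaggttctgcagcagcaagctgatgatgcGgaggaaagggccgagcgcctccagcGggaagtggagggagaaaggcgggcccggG
Tpm3-rs7: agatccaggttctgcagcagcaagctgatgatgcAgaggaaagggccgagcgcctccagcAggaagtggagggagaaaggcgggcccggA
A read placed in one of the identical runs fits both loci, so the level of each of these genes by itself is uncertain.

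Rps3a3 (ENSMUSG00000059751) had 28, 28, 38 and 50 reads in WT saline, 48, 27, 19 and 41 in WT AngII, 2787, 2947, 1546 and 1651 in KO saline and 31, 39, 38 and 33 in KO AngII. Its interaction was -6.32 (SE 0.41, 95% interval -7.20 to -5.43, adjusted p = 2.28e-06). Rps3a2 (ENSMUSG00000062611) had 42 to 74 reads in every library of the other 3 groups and 1244, 2881, 1527 and 1251 in KO saline, with an interaction of -5.16 (SE 0.43, adjusted p = 2.86e-05). The KO saline libraries did not overlap with any other library for either gene.

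Tpm3-rs7 (ENSMUSG00000058126) had KO saline levels of 49.0, 106, 43.4 and 51.9 CPM, against 8.71 to 15.7 CPM in the other 12 libraries. Its interaction was -2.75 (SE 0.38, adjusted p = 0.0152). This call was lost when any of 5 libraries was left out, at adjusted p = 0.0565 and 0.0509 without WT saline replicates 3 and 4, 0.0502 and 0.0540 without WT AngII replicates 3 and 4, and 0.0511 without KO AngII replicate 3. It was also lost without both KO saline replicate 1 and KO AngII replicate 4 (0.0538), while its fold change stayed between -2.93 and -2.37 in every setting tried.

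The parent genes had fewer reads in the same libraries. Rps3a1 had 6869, 1551, 5108 and 5853 reads in KO saline and 8034 to 14493 in the other libraries, and its interaction was 0.99 (SE 0.40, adjusted p = 0.422). The copies held 37.0%, 79.0%, 37.6% and 33.1% of the reads of the Rps3a1 family in KO saline and 0.672% to 1.30% in every other library. Summed over parent and copies, the family was at 566.9 to 703.9 CPM in KO saline and at 529.6 to 759.8 CPM in the other libraries, so the groups overlapped in the sum. For Tpm3, the copy held 40.2%, 73.6%, 32.4% and 35.1% of family reads in KO saline and 6.68% to 10.1% elsewhere, and KO saline replicate 2 had the largest share in both families. The summed Tpm3 family was at 121.8 to 147.7 CPM in KO saline and 114.3 to 208.5 CPM elsewhere.

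**Figure D1:**
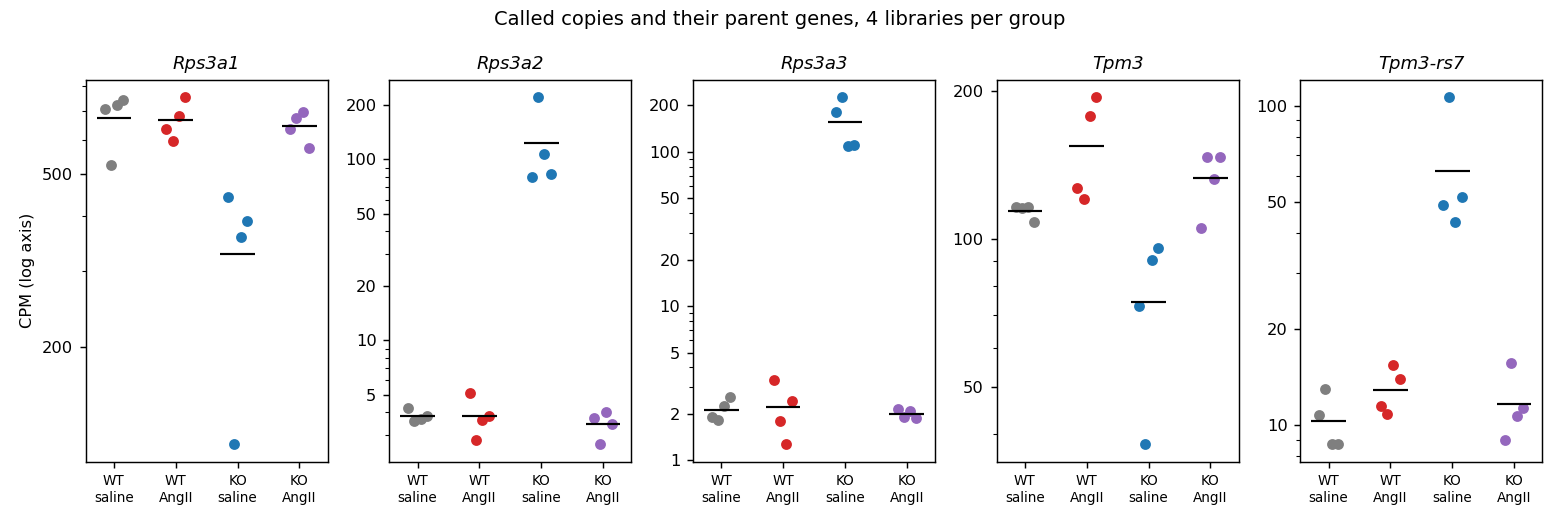
CPM of the parent genes Rps3a1 and Tpm3 and of the called copies Rps3a2, Rps3a3 and Tpm3-rs7 on log axes (each panel has its own scale), with 1 point per library and a line at the mean of each group of 4. The copies are high in KO saline, from 43.4 CPM upward, and at 15.7 CPM or less in the other 12 libraries, while both parents are lowest in KO saline.

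The called genes were 0.0188% of the genes tested in the lower direction (3 genes) and 0% in the higher direction (0 genes). At an unadjusted p under 0.05, 737 genes had a negative interaction (4.61%) and 1056 a positive one (6.61%), 1793 in all (11.2%). DESeq2 called 37 lower (0.231%) and 67 higher (0.419%), and limma voom with quality weights called 50 lower (0.313%) and 123 higher (0.77%). Both of these tools called 59 genes in common, 20 lower and 39 higher, which were 56.7% of DESeq2's calls and 34.1% of voom's. Of the 59, 58 had an unadjusted p under 0.05 by edgeR, the exception being Hist1h2al, from a histone family whose members are almost identical. With 1 library left out, edgeR called 2 to 4 genes lower and 0 to 8 higher: 8 without WT saline replicate 2, 1 when KO AngII replicate 1 was left out, and 0 in each other case. The biological coefficient of variation was 35.3%, and the median SE of an interaction was 0.37 on the log2 scale against 0.26 for a response in either genotype.

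The genes of lowest p after these copies included Hmgb2 and Lep, which differed in form. Hmgb2, a chromatin protein abundant in dividing cells, was at 7.12, 5.68, 5.96 and 7.43 CPM in WT saline and at 17.0, 15.7, 23.7 and 22.5 CPM in WT AngII. It was at 9.56, 15.9, 9.49 and 14.0 CPM in KO saline, while the KO AngII libraries held 10.3, 14.2, 9.57 and 14.9 CPM. Both KO groups lay above WT saline, overlapped each other and lay below WT AngII, apart from KO saline replicate 2, which was above the lowest WT AngII library. The interaction of Hmgb2 was -1.59 (SE 0.30, adjusted p = 0.185). It was called by DESeq2 (adjusted p = 0.000923) and by voom (0.0392), and by edgeR with the brown adipocyte score (0.00552) or the neuronal score (0.0451) as a covariate.

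Lep encodes leptin, the hormone of fat cells. It was at 6.24, 13.2, 7.61 and 12.8 CPM in WT saline and at 4.05, 4.95, 2.41 and 3.03 CPM in WT AngII. In KO it was at 9.62, 8.84, 16.7 and 14.2 CPM under saline and at 14.8, 70.0, 38.1 and 30.1 CPM under AngII. KO AngII lay above WT AngII in all 4 libraries (log2 3.41, SE 0.44, adjusted p = 0.000648), and the interaction was 3.10 (SE 0.58, adjusted p = 0.185), called by DESeq2 (adjusted p = 0.000131) and just missed by voom (0.05001). Without KO AngII replicate 1, edgeR called it (adjusted p = 0.0403). The 13 adipocyte markers, of which Lep is a member, had a median interaction of -0.30 with 10 negative and 3 positive, and the part of fat tissue in the level of Lep was not tested.

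For several other genes of low p, KO against WT passed under saline and did not pass under AngII, while the interaction itself did not pass by edgeR. Ly6c1, a membrane-anchored Ly6 protein abundant on endothelium, had KO saline levels of 282, 233, 227 and 251 CPM, against 87.3 to 138 CPM in the other 12 libraries. Its interaction was -1.02 (SE 0.22, adjusted p = 0.357), with voom at 0.0392 and DESeq2 at 0.00424. In an edgeR fit that took transcript length into account it was -0.71 (adjusted p = 0.497), the smallest size in any setting tried. Fhod3, which organises actin in muscle cells, had its lowest levels in KO saline (2.13, 2.61, 3.16 and 2.60 CPM) and 3.09 to 20.5 CPM elsewhere, with 1 library of WT AngII, at 3.09 CPM, inside the KO saline range. Its interaction was 2.85 (SE 0.61, adjusted p = 0.361). Lancl3 had the same order of group means (14.3, 9.93, 4.80 and 15.04 CPM in WT saline, WT AngII, KO saline and KO AngII, interaction 2.17, SE 0.50, adjusted p = 0.361), as did Ccdc170 at lower levels (1.11, 0.501, 0.223 and 1.64 CPM, interaction 3.97, adjusted p = 0.185). Pgr, the progesterone receptor, averaged 10.2, 4.30, 2.84 and 6.70 CPM in that order (interaction 2.48, SE 0.57, adjusted p = 0.361). DESeq2 and voom each called Fhod3, Lancl3, Ccdc170 and Pgr.

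AY036118, an RNA with no biotype in the reference, was low in KO AngII alone, at 16.2, 13.4, 18.0 and 15.9 CPM against 43.8 to 106 CPM in the other 12 libraries. Its interaction was -2.32 (SE 0.37, adjusted p = 0.0621), and both DESeq2 (adjusted p = 1.18e-05) and voom (0.0240) called it. By edgeR AY036118 passed without KO saline replicate 3 (adjusted p = 0.00828) and with no filter on low counts (0.0427). Ndufa4l2, a mitochondrial protein induced by low oxygen, averaged 21.7 and 34.6 CPM in WT saline and WT AngII and 34.8 and 18.0 CPM in KO saline and KO AngII (interaction -1.62, SE 0.31, adjusted p = 0.185). Cox6b2, a subunit of cytochrome c oxidase, followed the same order at 3.25, 5.47, 6.37 and 2.88 CPM (interaction -1.89, SE 0.40, adjusted p = 0.357). Akr1b8, an aldo-keto reductase, averaged 10.3, 15.5, 17.3 and 10.6 CPM (-1.31, SE 0.29, adjusted p = 0.361). Serinc2 was at 0.236 to 0.610 CPM in WT saline and at 2.54, 0.602, 4.01 and 5.53 CPM in WT AngII, and at 1.97 CPM or less in both KO groups (interaction -4.06, SE 0.89, adjusted p = 0.361). The positive side also held Lonrf1 and Chrna7, with interactions of 0.98 and 6.18 (adjusted p = 0.357 and 0.361). DESeq2 called all of Ndufa4l2, Cox6b2, Akr1b8, Serinc2, Lonrf1 and Chrna7, and voom called Akr1b8, Lonrf1 and Chrna7 of these. The level of Chrna7, a nicotinic receptor subunit, was 11.4 CPM in KO AngII replicate 4, the library richest in neuronal markers, and 0 to 1.92 CPM in the other 15.

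**Figure D2:**
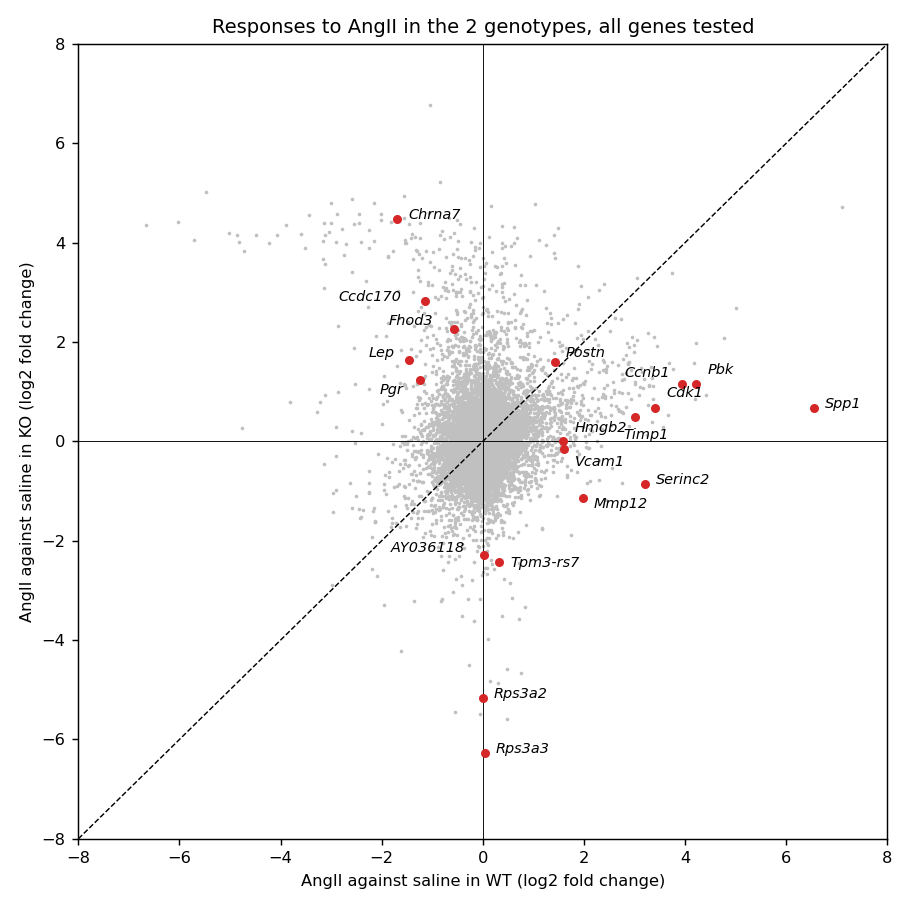
Log2 fold change of AngII against saline in WT (x axis) and in KO (y axis) for the genes tested (grey, 1 of them beyond the axes at 8 log2 units), with named genes in red. A gene below the dashed line of equal response has a negative interaction, and the called copies lie near the vertical axis, with WT responses of 0.04, 0.01 and 0.33 for Rps3a3, Rps3a2 and Tpm3-rs7.

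Across all genes the estimated responses of the genotypes had a Pearson correlation of 0.03 and a Spearman correlation of 0.09. The 15984 genes share libraries and are not independent. The median size of a response was 0.18 in WT and 0.30 in KO, against a median SE of 0.26 in each. Errors of that size lower such a correlation, so it does not show that the true responses are unrelated. Of the 70 genes called higher in WT, 67 had a positive KO response. The 2 responses have no library in common. Of the 1793 genes at an unadjusted p under 0.05, 85.6% had responses of opposite sign, against 47.7% of all genes, which follows in part from choosing large interactions. The KO response was the larger of the pair in 68.8% of them, against 62.2% of all genes. The genotype difference was larger under saline than under AngII in 57.1% of them and in 57.2% of all genes.

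Genes of cell division had the largest share of members at an unadjusted p under 0.05 among the lists. The list of mitosis and spindle genes drew in part on genes already known to be called in WT, so its direction was partly fixed by the choice. Of its 30 genes, 29 had a negative interaction, 19 of them at an unadjusted p under 0.05 and none in the other direction, against 4.61% negative over all genes. No member passed by edgeR, DESeq2 called 2 lower and voom none. The median log2 response was 2.96 in WT and 1.14 in KO, and the median interaction was -1.82, against 0.01 over all genes. The mean log2 CPM of the list was 0.08 to 0.44 in WT saline, 2.23 to 3.40 in WT AngII, 0.15 to 1.08 in KO saline and 0.51 to 2.43 in KO AngII. KO AngII thus ran from the level of the saline groups to above the lowest WT AngII library.

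Cdk1, the kinase of mitotic entry, was at 0.949, 1.76, 1.53 and 0.819 CPM in WT saline and at 6.73, 9.29, 17.2 and 20.9 CPM in WT AngII. In KO it was at 2.91, 2.69, 2.74 and 2.46 CPM under saline and at 1.96, 4.43, 2.79 and 8.05 CPM under AngII. The WT groups did not overlap and the KO groups did. The log2 response was 3.41 in WT (SE 0.46, adjusted p = 0.00981) and 0.67 in KO (SE 0.43, adjusted p = 0.388), with an interaction of -2.74 (SE 0.62, 95% interval -4.05 to -1.43, adjusted p = 0.361). DESeq2 called it (adjusted p = 0.00891) and voom did not (0.0642).

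Ccnb1, the cyclin partner of Cdk1, averaged 0.568, 8.89, 1.40 and 3.13 CPM in WT saline, WT AngII, KO saline and KO AngII (interaction -2.80, SE 0.77, adjusted p = 0.361). Pbk, a kinase of dividing cells, averaged 0.579, 10.8, 1.57 and 3.48 CPM (-3.08, SE 0.78, adjusted p = 0.361, DESeq2 adjusted p = 0.0259). The DNA replication and S phase list was less one-sided, with a median interaction of -0.43. At an unadjusted p under 0.05, 5 of its 27 genes were negative and none positive, against 4.61% negative over all genes. Its median response was 0.63 in WT and 0.21 in KO.

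The genes called in WT were then read in KO. In WT, 70 genes passed as higher (0.438% of those tested). None of them passed in KO, where 0 genes passed as higher (0%) and 8 as lower (0.0501%) and 1891 had a positive response at an unadjusted p under 0.05 (11.8%). Of the 70, 67 had a positive log2 response in KO, against 51.9% of all genes, and 40 of these were at an unadjusted p under 0.05. Serinc2 and Vcam1 were among those with a negative KO response. The median response of the 70 was 2.87 in WT and 1.10 in KO. Their interaction was negative in all 70, with a median of -1.62, and at an unadjusted p under 0.05 in 48, against 4.61% negative over all genes. That direction is favoured by the choice, since genes picked for a high WT response tend to have it overestimated, and none of the 70 passed the interaction test. The number called in WT was 3 without WT saline replicate 1 or 4, 5 without WT saline replicate 3, 12 without WT AngII replicate 3 or 4, 30 without WT saline replicate 2 and 38 when KO AngII replicate 2 was left out. It was 107 without WT AngII replicate 2 and 110 when KO AngII replicate 4 was left out.

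Spp1 encodes osteopontin, a secreted matrix protein and cytokine. It was at 2.03, 0.457, 0.944 and 1.18 CPM in WT saline and at 63.2, 3.07, 123 and 245 CPM in WT AngII. In KO it was at 0.0646, 1.23, 6.89 and 0.732 CPM under saline and at 0.700, 2.65, 2.13 and 8.56 CPM under AngII. All 8 KO libraries lay below the upper 3 WT AngII libraries, and WT AngII replicate 2 lay among them. The interaction was -5.89 with a wide interval of -9.32 to -2.45 (SE 1.61, adjusted p = 0.361), and DESeq2 called Spp1 (adjusted p = 0.0451) while voom did not (0.398).

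Vcam1, an adhesion molecule that binds leukocytes, was at 57.5, 41.0, 24.6 and 55.3 CPM in WT saline and at 144, 62.2, 137 and 204 CPM in WT AngII. In KO it was at 47.1, 74.0, 53.7 and 75.4 CPM under saline and at 42.9, 70.1, 55.3 and 55.4 CPM under AngII. The WT infusion groups were apart and the KO groups overlapped (interaction -1.78, SE 0.45, 95% interval -2.74 to -0.82, adjusted p = 0.361, DESeq2 adjusted p = 0.0368, voom 0.0836). Timp1, which blocks metalloproteinases of the matrix, was at 12.3 to 15.9 CPM in WT saline and at 46.8, 22.4, 238 and 164 CPM in WT AngII. Its KO levels were 9.42 to 23.4 CPM under saline and 9.58 to 36.4 CPM under AngII (interaction -2.51, SE 0.81, adjusted p = 0.391).

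**Figure D3:**
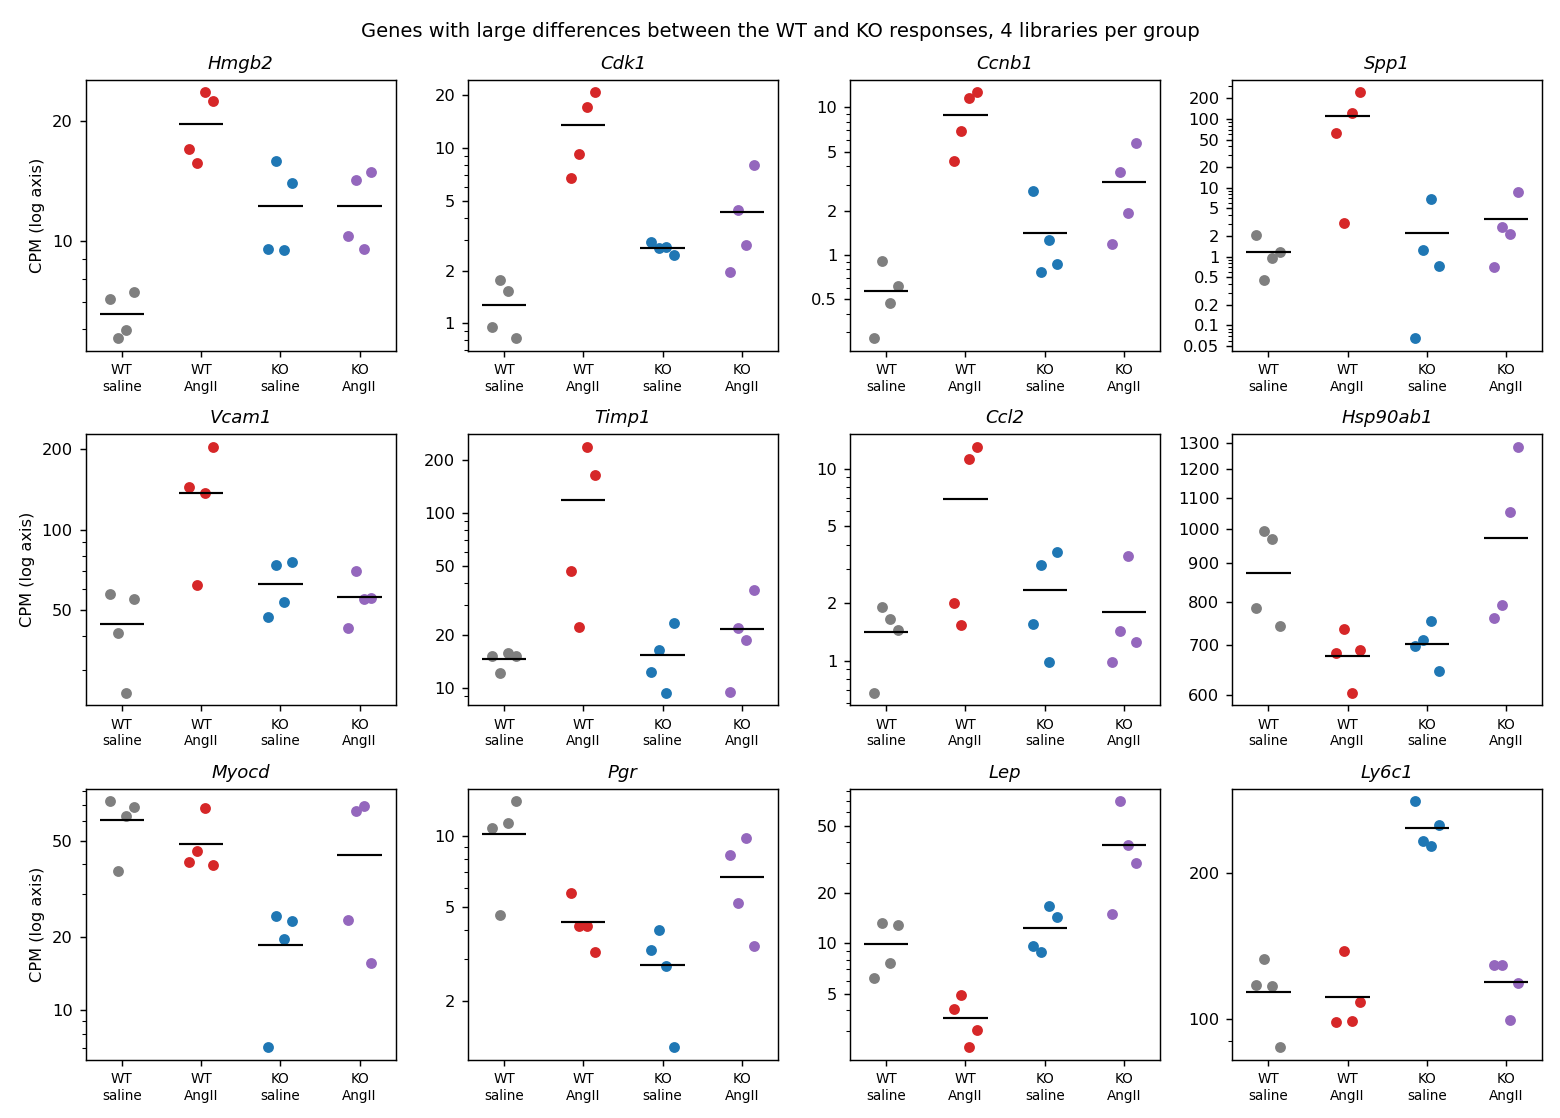
CPM of 12 named genes on log axes (each panel has its own scale), with 1 point per library and a line at the mean of each group of 4. Hmgb2, Cdk1, Ccnb1, Spp1, Vcam1, Timp1 and Ccl2 have their highest mean in WT AngII, Lep and Hsp90ab1 in KO AngII, Myocd and Pgr in WT saline and Ly6c1 in KO saline.

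Chemokines recruit leukocytes to the vessel wall. Of the 23 measured chemokines and receptors, 18 had a negative interaction, 7 of them at an unadjusted p under 0.05, against 4.61% of all genes in that direction, and none was positive at that level. None passed by edgeR, DESeq2 or voom. The median response was 1.01 in WT and 0.14 in KO, and the median interaction of -0.85 lay between -1.15 and -0.65 in the settings tried. The median KO minus WT difference was 0.72 under saline and -0.50 under AngII. The mean log2 CPM of the list was 1.105 to 1.992 in WT saline and 2.105 to 2.468 in KO saline. With AngII it was 1.986 to 3.085 in WT and 2.181 to 2.876 in KO, so the genotypes overlapped there and not under saline. Ccl2, which attracts monocytes, was at 0.678 to 1.89 CPM in WT saline and at 1.99, 1.54, 11.2 and 13.03 CPM in WT AngII, against 0.984 to 3.66 CPM in KO saline and 0.979 to 3.50 CPM in KO AngII (interaction -2.67, SE 0.95, adjusted p = 0.411). Only WT AngII replicates 3 and 4 stood above the rest. Cx3cl1 (fractalkine) and Cxcl16, which can be shed from or held at cell surfaces, had interactions of -1.18 (SE 0.40, adjusted p = 0.406) and -1.09 (SE 0.38, adjusted p = 0.410).

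Macrophage markers summed to 490.7 to 917.5 CPM in WT saline, 553.1 to 1428 in WT AngII, 482.3 to 568.4 in KO saline and 445.4 to 653.0 in KO AngII. Of the 19 genes, 16 had a negative interaction, 2 of them at an unadjusted p under 0.05, against 4.61% negative over all genes. The list median was -0.59, and it was -0.35 without WT AngII replicate 4. In tissue RNA, fewer macrophages and less RNA per macrophage cannot be told apart, and the same holds for every cell type below. The 14 inflammatory cytokines and growth factors had a median of -0.50 with 3 negative at an unadjusted p under 0.05, and DESeq2 called 1 lower, Tnfrsf11b, the decoy receptor osteoprotegerin. The 12 leukocyte adhesion molecules had a median of -0.27, with 1 gene at that level, Vcam1.

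Matrix genes are the main structural products of the aortic wall. The 19 collagens had a median response of 0.78 in WT and 0.63 in KO, and none had an interaction at an unadjusted p under 0.05 (median -0.12, 12 negative and 7 positive). Collagen processing genes had medians of 0.44 and 0.45, with 1 of 23 at that level. Matricellular genes had 1.02 and 0.58, and elastic fibre genes 0.40 and 0.28. By sign alone, 12 of 23 matricellular and 7 of 16 elastic fibre genes had a negative interaction. At an unadjusted p under 0.05, 3 and 2 of them were negative and none positive, against 4.61% negative over all genes. The median interaction of each of these 4 lists changed sign under at least 1 alternative setting.

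Postn, which encodes periostin, a matrix protein of injured tissue, was at 1929, 912, 1752 and 1845 CPM in WT saline and at 3169, 2635, 6759 and 4666 CPM in WT AngII. It was at 583, 987, 676 and 502 CPM in KO saline, while the KO AngII libraries held 1835, 2457, 2866 and 1167 CPM. Saline and AngII did not overlap in either genotype, and the log2 responses were 1.42 (SE 0.36) in WT and 1.60 (SE 0.36) in KO, with adjusted p = 0.135 and 0.106. The interaction was 0.18 with a 95% interval of -0.89 to 1.25 (adjusted p = 0.899), so interactions across that interval remain compatible with the data. Lox, the enzyme that crosslinks collagen and elastin, had a WT response of 1.54 and a KO response of 0.75, with an interaction of -0.79 (SE 0.53, adjusted p = 0.549). Among 22 matrix proteases, 3 were negative and 2 positive at an unadjusted p under 0.05, against 4.61% and 6.61% of all genes. Mmp12, the macrophage elastase, averaged 0.447, 1.81, 0.781 and 0.350 CPM in WT saline, WT AngII, KO saline and KO AngII (interaction -3.11, SE 0.93, adjusted p = 0.361). On the positive side were the membrane-type Mmp16 (1.05, SE 0.45, adjusted p = 0.427) and Adamts8 (1.09, SE 0.48, adjusted p = 0.434).

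**Figure D4:**
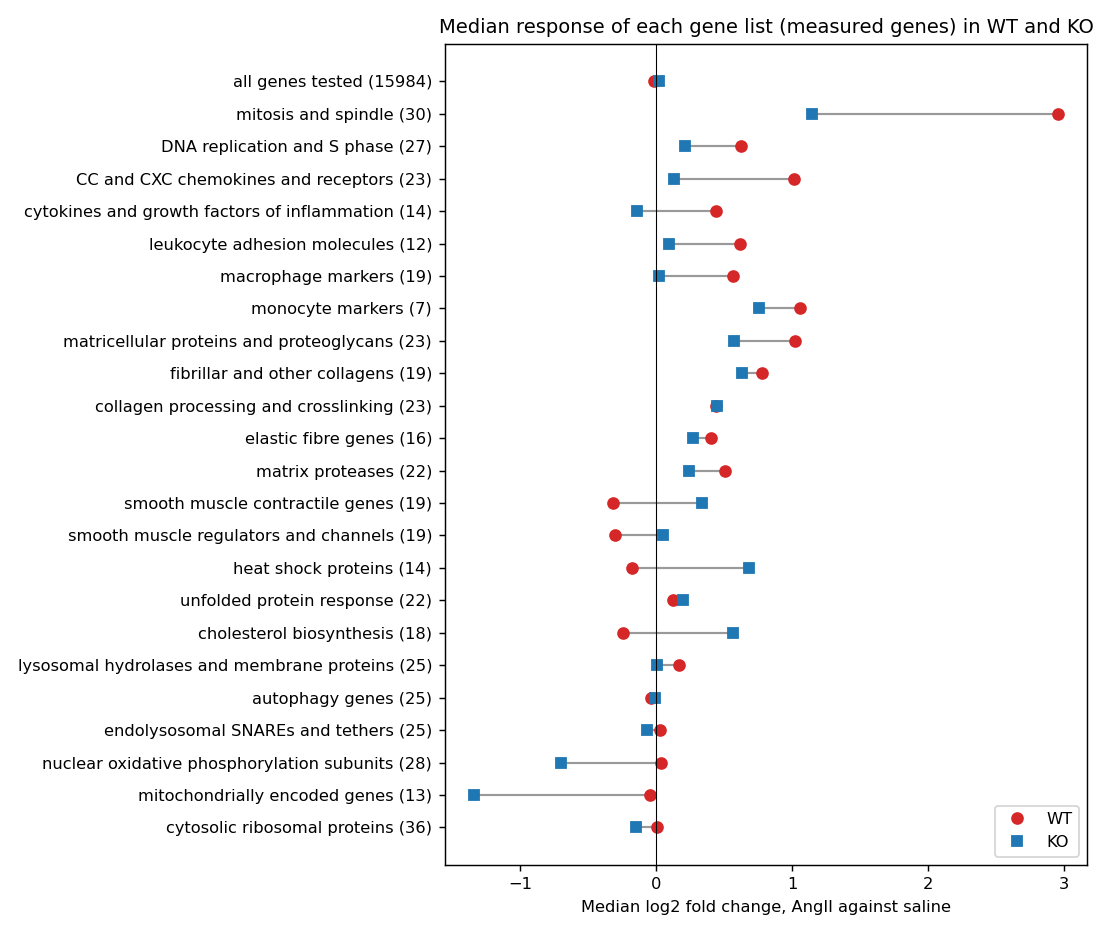
Median log2 fold change of AngII against saline in WT (circles) and KO (squares) for gene lists, with the number of measured genes in parentheses and a line joining the pair. The mitosis and spindle list has medians of 2.96 in WT and 1.14 in KO, collagens 0.78 and 0.63, heat shock proteins -0.18 and 0.69, and mitochondrially encoded genes -0.04 and -1.34.

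Smooth muscle genes had mostly positive interactions. Of the 19 contractile genes, 18 had a positive interaction, with a median of 0.65. At an unadjusted p under 0.05, 4 were positive, against 6.61% of all genes. The median response was -0.32 in WT and 0.34 in KO, and the median KO minus WT difference was -0.76 under saline and -0.07 under AngII. None passed by edgeR or DESeq2, and voom called 3 higher. The list median stayed between 0.43 and 1.04 in every setting. The mean log2 CPM of the list was 8.67 to 10.04 in WT saline and 9.206 to 9.713 in WT AngII. In KO it was 8.632 to 9.277 under saline and 9.372, 9.795, 9.688 and 8.443 under AngII. KO AngII replicate 4 was thus the lowest of all libraries, and the KO groups overlapped. Of 19 regulators and channels, 6 were positive, against 6.61% of all genes, and none negative at an unadjusted p under 0.05 (median 0.51). That median was 0.19 with the brown adipocyte score as a covariate and 0.26 without WT saline replicate 4.

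Myocd encodes myocardin, the coactivator that switches on contractile genes. It was at 72.8, 37.6, 63.3 and 69.1 CPM in WT saline and at 40.9, 45.1, 68.4 and 39.8 CPM in WT AngII. In KO saline it was at 7.04, 24.4, 19.6 and 23.4 CPM, below all 8 WT libraries, and in KO AngII at 23.5, 66.3, 69.3 and 15.6 CPM, which spans both ranges. The interaction was 1.56 (SE 0.63, adjusted p = 0.422). Srf, the transcription factor that myocardin acts on, averaged 82.9, 67.4, 45.5 and 65.5 CPM in WT saline, WT AngII, KO saline and KO AngII (0.82, SE 0.34, adjusted p = 0.422), and Trpc1, a cation channel subunit, 10.5, 8.73, 8.39 and 11.2 CPM (0.69, SE 0.28, adjusted p = 0.422).

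Heat shock proteins, the chaperones of stressed cells, had a median response of -0.18 in WT and 0.69 in KO. Of the 14 genes, 12 had a positive interaction, 8 at an unadjusted p under 0.05, against 6.61% of all genes in that direction, and none was negative at that level. DESeq2 called 1 higher and edgeR and voom none. The median of 0.97 stayed between 0.71 and 1.17 in every setting. The mean log2 CPM of the list was 6.716 to 7.416 in WT saline and 6.616 to 7.336 in WT AngII. In KO it was 6.233 to 6.736 under saline and 6.282, 7.142, 8.156 and 6.878 under AngII. KO AngII replicate 1 thus lay inside the KO saline range, and only replicate 3 lay above WT saline. Hsp90ab1, the constitutive cytosolic HSP90, was at 785, 993, 969 and 743 CPM in WT saline and at 683, 734, 604 and 689 CPM in WT AngII. In KO it was at 698, 711, 753 and 647 CPM under saline and at 760, 790, 1052 and 1288 CPM under AngII. Saline and AngII did not overlap in either genotype and their order was opposite (interaction 0.83, SE 0.25, adjusted p = 0.368, DESeq2 adjusted p = 0.0471, voom 0.102). Hsp90aa1, the inducible form, was at 197, 288, 500 and 609 CPM in KO AngII and at 172 to 346 CPM in the other libraries (1.14, SE 0.38, adjusted p = 0.397), and the cochaperone Bag3 had an interaction of 0.91 (SE 0.29, adjusted p = 0.390). The 22 genes of the unfolded protein response of the endoplasmic reticulum had a median of 0.03, with 1 gene at an unadjusted p under 0.05.

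Cholesterol synthesis genes were also on the positive side, with 4 of 18 genes at an unadjusted p under 0.05, against 6.61% of all genes, none negative at that level and a median of 0.61 (-0.25 in WT and 0.57 in KO). The mean log2 CPM of the list was 6.00 in KO AngII replicate 4 and 4.28 to 4.99 in the other 15 libraries. The median was 0.10 without that library and 0.22 without both KO saline replicate 1 and KO AngII replicate 4. DESeq2 and voom each called 1 higher.

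The lists closest to the known role of VAMP8 are read against 4.61% negative and 6.61% positive over all genes at an unadjusted p under 0.05. Of 25 endolysosomal SNAREs and tethers, Vamp8 included, 14 had a negative and 11 a positive interaction (3 and 1 at an unadjusted p under 0.05, median -0.12). The 25 autophagy genes had a median of 0.02 (1 negative and 2 positive at that level). The 25 lysosomal genes had a median of -0.24 (21 negative and 4 positive, of which 4 and 1 at that level), with medians of 0.17 in WT and 0.01 in KO. No member of the 3 lists passed by edgeR, DESeq2 or voom.

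TGF-beta signalling drives matrix synthesis in the aorta. Its 17 ligands, receptors and targets were divided. At an unadjusted p under 0.05, 2 were negative and 2 positive, against 4.61% and 6.61% of all genes. The list median was 0.25, and it ran from 0.02 to 0.30 with 1 library left out. It was 0.03 in a fit that took transcript length into account and 0.11 with the brown adipocyte score as a covariate. Tgfbr3, the coreceptor betaglycan, was at 95.6, 81.8, 88.8 and 103 CPM in WT saline and at 71.8, 72.9, 47.6 and 64.7 CPM in WT AngII, and at 69.7 to 84.1 CPM in KO saline and 76.4 to 114 CPM in KO AngII. The WT groups were apart and the KO groups overlapped (interaction 0.76, SE 0.22, adjusted p = 0.361, DESeq2 adjusted p = 0.0499, voom 0.0674). Bambi, a decoy receptor, had 0.72 (SE 0.29, adjusted p = 0.422, voom adjusted p = 0.0428, DESeq2 0.282), and Tgfb1, the ligand, -0.41 (SE 0.18, adjusted p = 0.428).

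Of 11 osteochondrogenic genes, markers of a cartilage or bone program, 6 had a negative and 5 a positive interaction, with a list median of -0.20. At an unadjusted p under 0.05, 3 were negative and none positive, against 4.61% negative over all genes. Alpl, alkaline phosphatase, had KO saline levels of 52.8, 37.0, 62.5 and 91.5 CPM, against 11.1 to 39.6 CPM elsewhere (interaction -1.55, SE 0.54, adjusted p = 0.406). Sox9, a cartilage transcription factor, averaged 1.58, 5.66, 2.44 and 2.60 CPM in WT saline, WT AngII, KO saline and KO AngII (-1.74, SE 0.64, adjusted p = 0.411). Runx2, the bone transcription factor, averaged 0.887, 1.92, 1.42 and 0.772 CPM (-1.97, SE 0.85, adjusted p = 0.427).

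Mitochondrial RNA was highest in KO saline. All 13 measured mitochondrially encoded genes had a negative interaction, with a median of -1.19 (-0.04 in WT and -1.34 in KO). Of these, 6 were at an unadjusted p under 0.05, against 4.61% negative over all genes. Their median KO minus WT difference was 1.64 under saline and 0.48 under AngII. mt-Nd6, a subunit of complex I, had KO saline levels of 11693, 7869, 5682 and 7917 CPM, against 1471 to 5800 CPM elsewhere, with only KO AngII replicate 1 above the lowest KO saline library (interaction -1.27, SE 0.49, adjusted p = 0.419). mt-Nd2 and mt-Nd3 had -1.34 (SE 0.55, adjusted p = 0.422) and -1.79 (SE 0.75, adjusted p = 0.423). The 28 nuclear subunits of oxidative phosphorylation all had a negative interaction, none at an unadjusted p under 0.05, with a median of -0.68. That median was -0.04 without both KO saline replicate 1 and KO AngII replicate 4, and 0.06 with the brown adipocyte score as a covariate. Brown adipocyte markers had a median of -0.91, and the library labelled KO saline replicate 1 held their highest sum, 9468 CPM. Their median was -0.03 without both KO saline replicate 1 and KO AngII replicate 4, and with 1 library left out it ran from -1.92 (WT saline replicate 2) to -0.30 (KO saline replicate 1). The median of the nuclear subunits was -0.17 without KO saline replicate 1 alone. The part of fat in the nuclear genes was not tested beyond these values.

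Host genes of small nucleolar RNAs had a median of -0.51, with 3 of 13 genes negative at an unadjusted p under 0.05, against 4.61% of all genes. Snhg20 had KO saline levels of 8.40, 9.91, 9.49 and 11.9 CPM, against 2.85 to 7.96 CPM in the other libraries (interaction -0.90, SE 0.27, adjusted p = 0.361, voom adjusted p = 0.0428). Zfas1 and Snhg6 had -1.01 (SE 0.38, adjusted p = 0.419) and -0.91 (SE 0.34, adjusted p = 0.419), and Zfas1 reached 23.2 CPM in the library labelled KO saline replicate 1. The list median was -0.28 in a fit that took transcript length into account and -0.34 without that library.

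Some lists rested on 1 or 2 libraries. Skeletal muscle markers had a median of -3.45, with 5 of 11 genes negative at an unadjusted p under 0.05, against 4.61% negative over all genes. The list score of KO saline replicate 3 was 5.53 against 0.85 or less in every other library. In that library Mb (myoglobin) was at 45.7 CPM, Tnnt3 at 99.2 CPM and Tnni2 at 49.5 CPM (fast troponins), against at most 1.94, 6.19 and 2.73 CPM elsewhere, and the list median was 0.46 without it. Neuronal and chromaffin markers had a median of 6.04, with all 15 genes positive and 2 at an unadjusted p under 0.05, against 6.61% positive over all genes. Their score was 8.34 in KO AngII replicate 4 and 4.37 in KO AngII replicate 2, and the median was 1.93 without both KO saline replicate 1 and KO AngII replicate 4. Schwann cell markers had 1.82 with all libraries and 0.11 without those 2. RNA of nearby nerve, adrenal or muscle tissue and a response of the aorta cannot be told apart in such lists.

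Interactions followed transcript length. With genes in 10 equal bins by transcript length, the median interaction was -0.35 in the bin of shortest transcripts and went up through each bin to 0.37 in the longest. At an unadjusted p under 0.05, 165 genes were negative and 26 positive among the shortest, and 13 and 338 among the longest. The median transcript length was 1997 bases for negative and 5114 bases for positive interactions at that level, against 3194 over all genes. The gradient lay in the KO response, whose median went from -0.31 to 0.28, while that of WT went from 0.02 to -0.11. Across 15797 genes the Spearman correlation of interaction and length was 0.38. A fit with a length offset, added after seeing the data, reduced it to 0.04. In that fit 498 genes were negative and 858 positive at an unadjusted p under 0.05, and 3 genes were called lower and 0 higher. In it the median of the mitosis list was -1.83, of heat shock proteins 1.05, of contractile genes 0.76, and of smooth muscle regulators 0.26. RNA quality was not measured in the sources used here, and its part in the gradient was not tested.

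**Figure D5:**
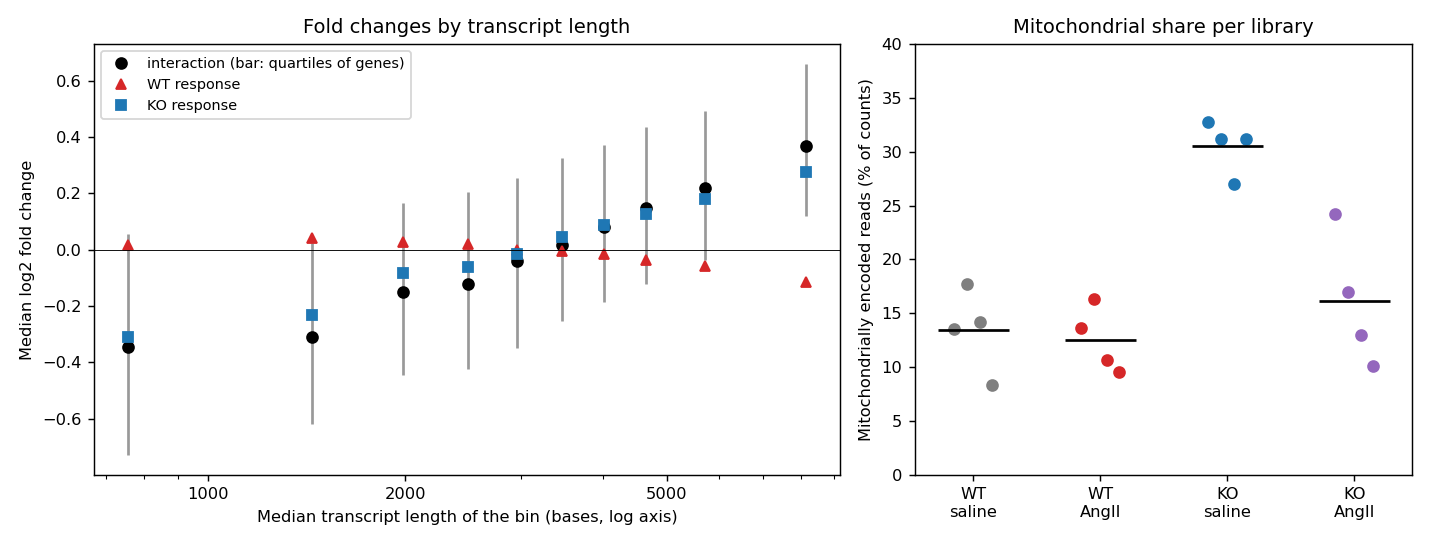
Left, median log2 fold change of the interaction (black, with bars from the lower to the upper quartile of genes), of the WT response and of the KO response in 10 equal bins of genes by transcript length (log axis, bases). Right, mitochondrially encoded reads as a percentage of counts in each library, with a line at the mean of each group of 4. The interaction and the KO response go from negative in short to positive in long transcripts, and the mitochondrial share is highest in KO saline.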

How the data were processed

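The deposited table held whole-number read counts for each gene, with no normalization by the authors. The authors' tools, per the submitters' processing notes, included DESeq2 1.20.0, featureCounts 1.5.0-p3 and HISAT2 2.0.5, and the build was GRCm39. How multiply matching reads and strand were handled, and with which annotation, is not given in the sources used, so reads of near-identical copies and of overlapping genes are uncertain. Transcript sequences, lengths and biotypes came from GENCODE M21 (GRCm38), which held 28378 of the 29695 gene identifiers. Of 2725 genes without a deposited symbol, a name table gave 2502.

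The default edgeR expression filter was applied (15984 kept, 13711 removed, at least 99.47% of reads kept per library). All 16 libraries entered 1 model with group means, TMM scaling and edgeR's quasi-likelihood test (R 4.3.3, edgeR 4.0.16, residual degrees of freedom 12), which gave the interaction and the 4 pairwise differences. Called genes had a Benjamini-Hochberg adjusted p, over all genes tested, under 0.05, and all tests were two-sided. The SE of a fold change was taken as its size over the root of F. The script was tested on counts simulated with known interactions and a smaller spread than in these data. That checks the code and does not bear on the calls made here. With 4 libraries a group, the median SE of an interaction was 0.37. The labels call the replicates biological, and p-values measure the spread between these libraries. Total counts of 13284804 to 21643548 set the counting precision, which is smaller than the spread between libraries for all but the lowest genes.

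The members, the gene lists (51, with 824 of 887 symbols measured) and the naming rule were chosen with earlier results of these data known, so lists are described by counts and medians and not tested. Named genes were Vamp8, all genes called, the 8 of lowest p in each direction (a named, protein-coding gene where a biotype is given, no marked copy, at least 1 CPM in the highest group), the 3 members of lowest p in each of the 10 lists with the largest share at an unadjusted p under 0.05, and Spp1, Vcam1, Timp1, Cdk1, Postn and Lox. The parent genes Rps3a1 and Tpm3, Hist1h2al and Tnfrsf11b were added after their values were seen. Results for 2 genes that the rule names are not reported here. A list score averages the members' log2 CPM with a prior count of 2.

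Alternatives were RLE scaling, no filter, a filter of 1 CPM in 4 libraries, DESeq2 1.42.0, limma voom with quality weights (limma 3.58.1), the replicate number as a block, mitochondrial genes left out, a neuronal or brown adipocyte score as a covariate, each library left out, and KO saline replicate 1 with KO AngII replicate 4 left out. A transcript length offset was added after seeing the data.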

Additional observations from a re-analysis of the deposited data

Results flagged for a closer look

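The interaction of 3 genes passed: Tpm3-rs7 (log2 fold change -2.75), Rps3a3 (-6.32) and Rps3a2 (-5.16), all near-identical copies whose reads are uncertain. The counts assigned to them changed differently with AngII in the genotypes. A response of the genes and a counting difference particular to KO saline cannot be told apart. Among 228 groups of 4 libraries of the named genes, 13 held a library apart from the other 3 by Dixon's criterion, which chance flags in about 1 in 20 groups. WT saline replicate 2 was low for Rps3a1 (524 CPM), Postn (912 CPM), Bambi (14.4 CPM) and Timp1 (12.3 CPM). WT AngII replicate 4 was high for Bag3 (78.7 CPM), Cx3cl1 (40.9 CPM) and Trpc1 (10.3 CPM). KO saline replicate 2 was low for Rps3a1 (119 CPM), where the copies took most of the family's reads. Vamp8 was low in KO AngII replicate 4 (14.1 CPM) and Tgfb1 in KO AngII replicate 1 (31.3 CPM). In WT saline, Serinc2 was high in replicate 1 (0.610 CPM), Mb low in replicate 3 (0.118 CPM) and Tpm3 low in replicate 4 (108 CPM).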

How the results depend on the processing

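The number of genes called lower in the interaction was 3, and it was 37 by DESeq2, 50 by limma voom, 6 with the neuronal score and 5 with the brown adipocyte score as a covariate, and 2 to 4 with 1 library left out. The number called higher was 0, and it was 67 by DESeq2, 123 by voom and 0 to 8 with 1 library left out, with the 8 seen when WT saline replicate 2 was left out and 1 when KO AngII replicate 1 was. The interaction of Postn, 0.18, turned to -0.107 with the brown adipocyte score, -0.0199 when WT AngII replicate 2 was left out and -0.0377 when KO AngII replicate 3 was, and ran from -0.0377 to 0.482 with 1 library left out. Of 1534 values of 57 named genes under alternatives, 1482 kept their direction and their side of the threshold, 43 passed newly (22 by DESeq2 and 14 by voom), 6 lost a call (all of Tpm3-rs7) and 3 changed sign (all of Postn). Of 49 lists compared, 23 had a median that changed sign under an alternative. The mitosis, heat shock, mitochondrially encoded, chemokine, contractile, smooth muscle regulator, macrophage, cholesterol, cytokine and matrix protease lists were not among them. The median over all genes moved by less than 0.1 log2 units in each setting. With the replicate number as a block, 3 genes were called lower and 0 higher. Of 24 same-numbered pairs, 6 had a correlation of deviations over 0.1 (median -0.08, range -0.53 to 0.48), against a median of 0.01 for other pairs. These values show no pairing by number, but they cannot exclude it. The cause of the differences between tools was not tested. The SE limits what can be seen: the median interaction SE of 0.37 log2 units leaves small differences in response undetectable.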
